A study of Homo sapiens with 21 samples.

Results

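The genes described here are 53 human genes of mitosis, the division of a cell's copied chromosomes, chosen by symbol from the 57820 rows of the deposited expression table. Each of the 53 symbols was found on 1 row, no member was at 0 in any library, and all 53 were among the 16092 genes that passed the filter on low values. The RNA came from the human neuroblastoma line NLF and from derivatives transduced with a Cas9 lentivirus. YAPKO2 and YAPKO1 are knockout lines of YAP1, the transcriptional coactivator held back by the Hippo pathway, and sgCON carries Cas9 with a scrambled guide. Each of these lines was grown for 72 h with 20 nM trametinib, an inhibitor of the MEK kinases of the RAS pathway, or with its solvent DMSO, while the parental line was labelled DMSO only. The 21 libraries form 7 groups of 3. These are YAPKO2 trametinib, YAPKO2 DMSO, YAPKO1 trametinib, YAPKO1 DMSO, sgCON trametinib, sgCON DMSO and parental. The knockout and sgCON lines share Cas9 transduction, which the parental line lacks. YAP1 knockout is present in YAPKO1 and YAPKO2, which are single lines like sgCON, so a guide and its line cannot be told apart. Whether a line is a clone is not given in the sources used here. The question behind the samples is how YAP bears on trametinib resistance in neuroblastoma cells with RAS pathway activity.

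Mitosis is started by CDK1 bound to cyclin B and is driven further by the Aurora and Polo kinases. The kinetochore, a protein plate on each centromere, ties the chromosomes to spindle microtubules, and the spindle checkpoint holds back chromosome separation until all are attached. The anaphase-promoting complex then marks cyclin B and securin for destruction, separase cuts the cohesin rings between sister chromatids, and a ring of actin and myosin pinches the cell apart. Most of these genes are transcribed mainly from late S phase to mitosis, under the DREAM and MuvB complexes, B-MYB and FOXM1, so their RNA in a culture follows the share of dividing cells. In RNA from whole cultures, fewer cells in G2 and M phase and less RNA per dividing cell cannot be told apart.

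The cell cycle genes homology region, with the core TTTGAA, and CCAAT boxes are the promoter letters known from genes of this class, so members' promoters are printed to show what these genes have in common besides function. RefSeq promoter windows (GRCh38.p14, 250 bases before to 50 after the gene start) were matched for 45 of the 53 members. AURKA, BIRC5, BUB3, CENPM, FOXM1, TPX2, TTK and UBE2C had no entry. Each sequence below is the 150 bases before the start on the gene's own strand, and capitals mark TTTGAA with its reverse complement TTCAAA, and the motif CCAAT with its reverse complement ATTGG. The first 4 genes hold both motifs, with a CCAAT 20 to 45 bases before TTTGAA, CCNB1 holds CCAAT alone, and CDC25B and CENPE hold neither.
CCNB2 (chr15:59104996-59105145, plus strand): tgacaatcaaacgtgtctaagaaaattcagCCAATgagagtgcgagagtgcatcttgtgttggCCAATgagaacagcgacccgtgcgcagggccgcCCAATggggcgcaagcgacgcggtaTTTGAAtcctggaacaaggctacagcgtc
PLK1 (chr16:23678739-23678888, plus strand): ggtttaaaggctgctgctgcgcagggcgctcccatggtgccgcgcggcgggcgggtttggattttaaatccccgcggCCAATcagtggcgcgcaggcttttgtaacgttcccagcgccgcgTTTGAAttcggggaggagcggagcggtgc
PRC1 (chr15:90994536-90994685, minus strand): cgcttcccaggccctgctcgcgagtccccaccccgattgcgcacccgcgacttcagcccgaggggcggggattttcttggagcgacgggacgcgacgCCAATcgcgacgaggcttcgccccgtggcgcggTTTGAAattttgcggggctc
KIF11 (chr10:92592980-92593129, plus strand): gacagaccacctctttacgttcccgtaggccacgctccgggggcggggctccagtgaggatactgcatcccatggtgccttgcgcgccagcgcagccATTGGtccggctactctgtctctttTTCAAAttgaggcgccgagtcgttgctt
CCNB1 (chr5:69167000-69167149, plus strand): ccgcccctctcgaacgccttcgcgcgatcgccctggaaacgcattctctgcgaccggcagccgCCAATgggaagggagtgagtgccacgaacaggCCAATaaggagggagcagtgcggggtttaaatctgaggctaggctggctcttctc
CDC25B (chr20:3786801-3786950, plus strand): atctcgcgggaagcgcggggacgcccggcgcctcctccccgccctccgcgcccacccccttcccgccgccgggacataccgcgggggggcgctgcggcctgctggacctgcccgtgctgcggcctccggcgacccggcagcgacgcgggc
CENPE (chr4:103198344-103198493, minus strand): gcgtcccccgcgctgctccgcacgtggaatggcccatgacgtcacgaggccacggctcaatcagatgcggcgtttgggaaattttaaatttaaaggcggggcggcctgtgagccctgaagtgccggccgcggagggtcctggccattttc

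TTTGAA, searched on both strands of the whole window, was found in 32 of the 45 members (71.1%), against 15.3% of the 27260 other windows. From 100 bases before the start on, it was found in 64.4% of the members and in 6.81% of the other windows. CCAAT was found in 71.1% of the members and in 35.6% of the others, and windows with 2 or more copies made up 42.2% of the members and 11.3% of the others. A CCAAT lying 20 to 45 bases before a TTTGAA, as in the first 4 sequences above, occurred in 28.9% of the members and 0.734% of the other windows. These are matches of letters and not measured binding sites. A window without them says nothing of the factors that act there.

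Libraries differed in how strongly GC-rich transcripts were represented. The members' transcripts have a median GC content of 43.4% against 49.6% for tested protein-coding genes. The part of this difference between libraries in the members' values was not tested beyond a correction for GC content. Each library was given a GC trend, in log2 units, by subtracting the median deviation of its GC-poor protein-coding genes from that of its GC-rich ones. For the trend these are the lowest and highest quartile of tested protein-coding genes, up to 43.4% and from 57.6% GC. Only 2 members reach the highest quartile. Members are called GC-poor or GC-rich below by a different split, at the members' own median. The trend was 0.71, 1.33 and -0.24 in YAPKO2 trametinib replicates 1, 2 and 3, and 0.08, 0.59 and 0.15 in YAPKO2 DMSO. It was 0.38, -0.07 and 0.52 in YAPKO1 trametinib, and -0.40, -0.23 and 0.67 in YAPKO1 DMSO. The sgCON and parental libraries lay between -0.59 and -0.12. YAPKO2 trametinib replicate 2 had the highest trend of the 21 libraries and YAPKO1 DMSO replicate 3 the highest of the YAPKO1 libraries. Counts are also given without these 2 high-trend libraries where they bear on them. For alternative fits other than the GC correction alone, the share of all genes called is not given. A change in such a count cannot be read as particular to the members. Farthest from the mean of its group lay YAPKO2 trametinib replicate 3, by 0.84, followed by replicate 2 of that group, by 0.73, and YAPKO1 DMSO replicate 3, by 0.66. YAP1 had 2.53 ± 1.28 FPKM in YAPKO2 trametinib and 2.89 ± 0.250 FPKM in YAPKO2 DMSO, 11.5 ± 1.23 and 11.7 ± 2.30 FPKM in YAPKO1, 23.3 ± 1.04 and 25.6 ± 1.85 FPKM in sgCON, and 31.9 ± 2.14 FPKM in parental cells (SD, n = 3 each). The adrenergic neuroblastoma genes PHOX2A, HAND2, GATA3, ISL1 and MYCN were expressed in all 21 libraries, while the T cell gene CD3E and the red cell gene HBB were at 0 in all 21. Of 4 epithelial genes CDH1 was at 0 in all 21 and EPCAM in 12, but KRT18 reached 15.7 FPKM, and the sum of the 4 was 0.594 to 3.84 FPKM in the knockout libraries, 14.5 to 17.8 FPKM in sgCON and 3.63 to 4.53 FPKM in parental cells. The part of these markers in the differences between lines was not tested. The files hold FPKM (fragments per kilobase of transcript, scaled to the total of the library) and no counts, so read numbers are unknown. Depth relative to 1 parental library, estimated from low values, ran from 0.785 to 1.68.

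Among the members, CCNB1 (cyclin B1) had the highest level per length, with a median of 216 FPKM over the 21 libraries, followed by PTTG1 (securin) at 199 FPKM and UBE2C, a ubiquitin-conjugating enzyme of the anaphase-promoting complex, at 183 FPKM. The lowest medians were 5.96 FPKM for CENPE, a kinetochore kinesin, 6.08 FPKM for MKI67, the Ki-67 antigen, and 6.67 FPKM for KIF18A, a kinesin that shortens microtubules.

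**Figure D1:**
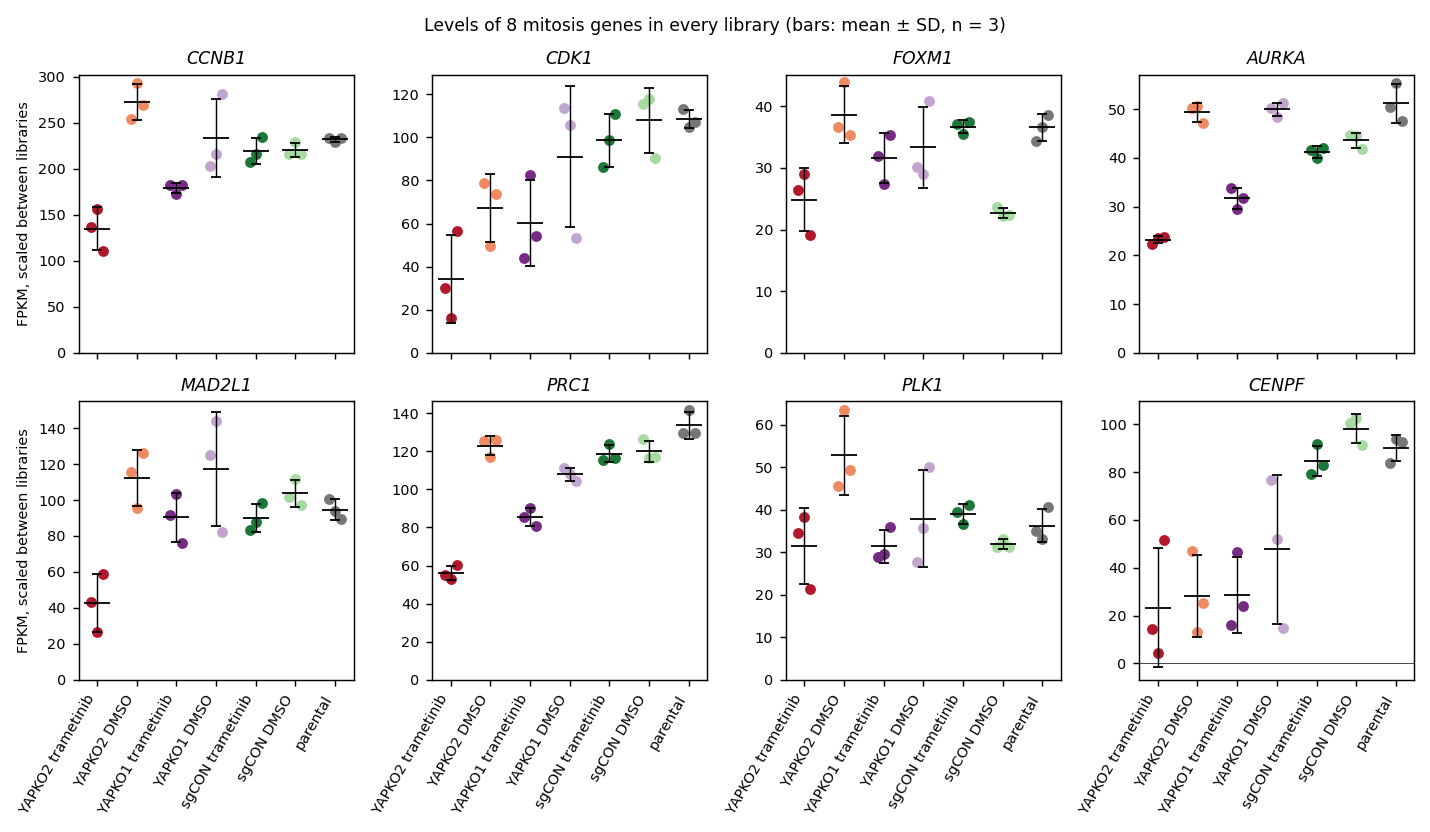
Levels of CCNB1, CDK1, FOXM1, AURKA, MAD2L1, PRC1, PLK1 and CENPF in FPKM (vertical axes, scaled between libraries) in all 21 libraries. Points are libraries and bars are the mean ± SD (n = 3); AURKA and PRC1 are lowest in the 3 YAPKO2 trametinib libraries, FOXM1 is low in sgCON DMSO, and CENPF varies widely within the knockout groups.

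Trametinib lowered most of the mitosis genes in YAPKO2. Of the 53 members, 36 fell and none rose at a Benjamini-Hochberg adjusted p under 0.05 (limma over all 16092 genes), and 51 of the 53 had a negative log2 change. Over all genes tested, 20.1% were called in this comparison, 8.59% as higher and 11.5% as lower. The median log2 change of the members was -0.82, or 0.568 of the DMSO level, against -0.01 for all genes tested. The 36 came from every role, with all 7 members of the Aurora, Polo and passenger group, 6 of 7 cyclins, CDK1 and entry regulators, and all 4 genes of anaphase promotion and separation. Of 9 centromere and kinetochore genes 4 fell, and of 4 spindle assembly proteins 1 fell, with role medians of -0.70 and -0.77 against -0.73 for the anaphase genes. The difference between roles was not tested.

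Among the entry regulators, CCNB1 had 137, 157 and 110.4 FPKM in YAPKO2 trametinib, against 254.5, 293 and 269.7 FPKM in YAPKO2 DMSO. All trametinib libraries lay below all DMSO libraries, and the log2 change was -1.02 ± 0.12 (SE, adjusted p = 1.28e-05, limma). CCNA2, cyclin A2, which works in S phase and early mitosis, changed by -1.13 ± 0.13 (adjusted p = 1.03e-05, limma), and CCNB2 by -0.63 ± 0.08. CDK1, the kinase that the B cyclins activate, had 29.9, 16.3 and 56.6 FPKM in trametinib and 78.7, 49.4 and 73.8 FPKM in DMSO. Its groups overlapped, and its fall of -1.11 ± 0.35 on the log2 scale passed the threshold narrowly (adjusted p = 0.0333, limma). CDC25C, a phosphatase that removes inhibitory phosphates of CDK1, fell by 0.49 on the log2 scale. Its relative CDC25B was the only entry regulator not called, at 33.9, 42.9 and 23.9 FPKM in trametinib and 25.6, 33.4 and 27.2 FPKM in DMSO (log2 change 0.19, 95% interval -0.19 to 0.57).

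The kinase AURKA, which matures the spindle poles, had 22.4, 23.6 and 23.7 FPKM in YAPKO2 trametinib, against 50.3, 50.6 and 47.1 FPKM in YAPKO2 DMSO. The replicates of each treatment were close together and far from the other treatment, with a log2 change of -1.07 ± 0.08 (adjusted p = 5.86e-08, limma). AURKB, the catalytic part of the chromosomal passenger complex, had 55.9, 67.7 and 43.1 FPKM in trametinib and 109, 136 and 115 FPKM in DMSO, again without overlap (log2 change -1.12 ± 0.15). Its partners fell too: BIRC5 (survivin) changed by -0.85, CDCA8 (borealin) by -0.81 and INCENP by -0.71, and TPX2, which activates AURKA on microtubules, by -0.82. PLK1, the Polo kinase, had 34.6, 38.4 and 21.5 FPKM in trametinib and 45.6, 63.5 and 49.4 FPKM in DMSO, a log2 change of -0.77 ± 0.20 (adjusted p = 0.0131, limma).

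MAD2L1, the checkpoint protein that restrains CDC20, showed the largest change of all 53 members. It had 43.3, 26.6 and 58.8 FPKM in YAPKO2 trametinib and 115, 95.7 and 126 FPKM in YAPKO2 DMSO. The groups did not overlap, and the log2 change was -1.44 ± 0.23 (adjusted p = 0.000205, limma). BUB1, a checkpoint kinase of the kinetochore, had 17.4, 16.2 and 21.8 FPKM in trametinib and 32.4, 32.6 and 34.9 FPKM in DMSO (log2 change -0.84 ± 0.11), and BUB1B (BubR1) changed by -0.99 ± 0.14. BUB3 and TTK (the checkpoint kinase MPS1) were not called, at -0.24 and -0.50. The 95% interval of TTK, -1.84 to 0.84, holds the size of the called changes. Among the genes of anaphase, PTTG1 had 138, 154 and 123 FPKM in trametinib and 234, 276 and 278 FPKM in DMSO (log2 change -0.92 ± 0.09). CDC20, the activator of the anaphase-promoting complex, had 66.0, 81.5 and 37.9 FPKM in trametinib and 90.9, 116 and 91.8 FPKM in DMSO (log2 change -0.75 ± 0.22). UBE2C and ESPL1 (separase) changed by -0.70 and -0.58.

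At the centromere, the histone variant CENPA, which marks the site where kinetochores form, had 13.8, 12.9 and 14.9 FPKM in YAPKO2 trametinib, against 29.5, 29.6 and 36.7 FPKM in YAPKO2 DMSO (log2 change -1.17 ± 0.12, adjusted p = 2.81e-06, limma). Of the NDC80 complex, which grips microtubules, SPC25 changed by -1.17 ± 0.17 and NDC80 by -0.99 ± 0.33. NDC80 had 7.54, 3.63 and 13.5 FPKM in trametinib and 15.02, 14.6 and 14.97 FPKM in DMSO. Their partner NUF2 was not called (log2 change -0.61, 95% interval -1.88 to 0.67). CENPE and CENPF, a farnesylated kinetochore protein, were not called either, with log2 changes of 0.01 and -0.71. CENPF had 14.2, 4.32 and 51.6 FPKM in trametinib and 46.8, 12.9 and 25.1 FPKM in DMSO, so that each group held both high and low libraries.

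KIF11, the kinesin that pushes spindle poles apart, had 8.24, 2.82 and 17.8 FPKM in YAPKO2 trametinib and 22.8, 14.1 and 21.2 FPKM in YAPKO2 DMSO. The groups overlapped, and the log2 change was -1.27 ± 0.42 (adjusted p = 0.0418, limma). The cytokinesis kinesins were more even: KIF20A had 71.7, 80.6 and 64.5 FPKM in trametinib and 122, 133 and 119.6 FPKM in DMSO (log2 change -0.79 ± 0.09), and KIF23, of the centralspindlin complex, changed by -1.12 ± 0.21. PRC1, which bundles the microtubules of the spindle midzone, had 54.9, 53.1 and 60.4 FPKM in trametinib and 126, 117 and 126 FPKM in DMSO. Its log2 change of -1.12 ± 0.08 had the smallest adjusted p of the 53 members (2.02e-08, limma). ANLN, a scaffold of the contractile ring, changed by -1.18 ± 0.31, while ECT2, which switches on the RHOA GTPase there, was not called (-0.83 ± 0.35). NUSAP1, a microtubule bundler, had 46.7, 47.1 and 75.7 FPKM in trametinib and 94.6, 89.1 and 85.1 FPKM in DMSO (log2 change -0.70 ± 0.20).

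Among the genes of chromosome structure, TOP2A, the topoisomerase that untangles sister chromatids, had 32.5, 10.5 and 65.3 FPKM in YAPKO2 trametinib and 78.2, 53.7 and 73.2 FPKM in YAPKO2 DMSO. Its groups overlapped too (log2 change -1.24 ± 0.42, adjusted p = 0.0437, limma). MKI67, the usual stain for cycling cells, had 3.71, 2.61 and 4.22 FPKM in trametinib and 6.85, 6.08 and 5.32 FPKM in DMSO (log2 change -0.73 ± 0.18). NCAPH, a condensin subunit, changed by -0.86 ± 0.10. SMC2, the core ATPase of both condensins, was not called, at 7.70, 1.35 and 22.6 FPKM in trametinib and 19.8, 6.98 and 13.0 FPKM in DMSO.

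The 3 YAPKO2 trametinib libraries did not show the fall in the same members. Set against the mean of YAPKO2 DMSO, the 27 members at or under the members' median GC content had a median log2 change of -0.92, -1.74 and 0.06 in replicates 1, 2 and 3, whereas the 26 more GC-rich members had -0.68, -0.62 and -1.01. The order of the GC-poor members followed the GC trend of the libraries, and the GC-rich members were lower in each of the 3. Below all YAPKO2 DMSO libraries were 47, 52 and 34 of the 53 members, against 33.2%, 39.1% and 36.7% of all genes tested. Above all YAPKO2 DMSO libraries were 1, 1 and 9 members, against 34.4%, 37.1% and 36.1% of all genes tested. Of the GC-rich members 23 of 26 fell, and of the GC-poor members 13 of 27. With a spline on GC content removed from each library, 39 members fell, 35 of them among the 36, and the median was -0.75. This correction called 27.7% of all genes tested.

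The number of falling members was 28 to 41 when single libraries were left out, 41 without YAPKO2 trametinib replicate 3, 31 without the 2 high-trend libraries, 26 without YAPKO2 trametinib replicates 2 and 3 together, and 16 when only the YAPKO2 libraries entered the fit. Of the 36 members, 16 were called under all alternatives tried, among them AURKA, AURKB, PRC1, CCNA2, CCNB1, CENPA, BUB1 and PTTG1. CDK1, CDC25C, KIF11, NUSAP1, TOP2A, NCAPG and NDC80 were lost in 4 or more of the 6 fits that left out 1 library. In the trametinib response of YAPKO2 42.8% of all called genes were higher, and 56.4% with the uncalibrated table as deposited, where 30 members fell. The summed level of 6 fibroblast marker genes, high in this line through LUM and DCN, was also lower in the treated knockout cells. It was 159 to 303 FPKM in YAPKO2 trametinib and 349 to 577 FPKM in YAPKO2 DMSO. Of the 6 genes, 2 were called as lower and 1 as higher, and their part in the result was not tested.

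**Figure D2:**
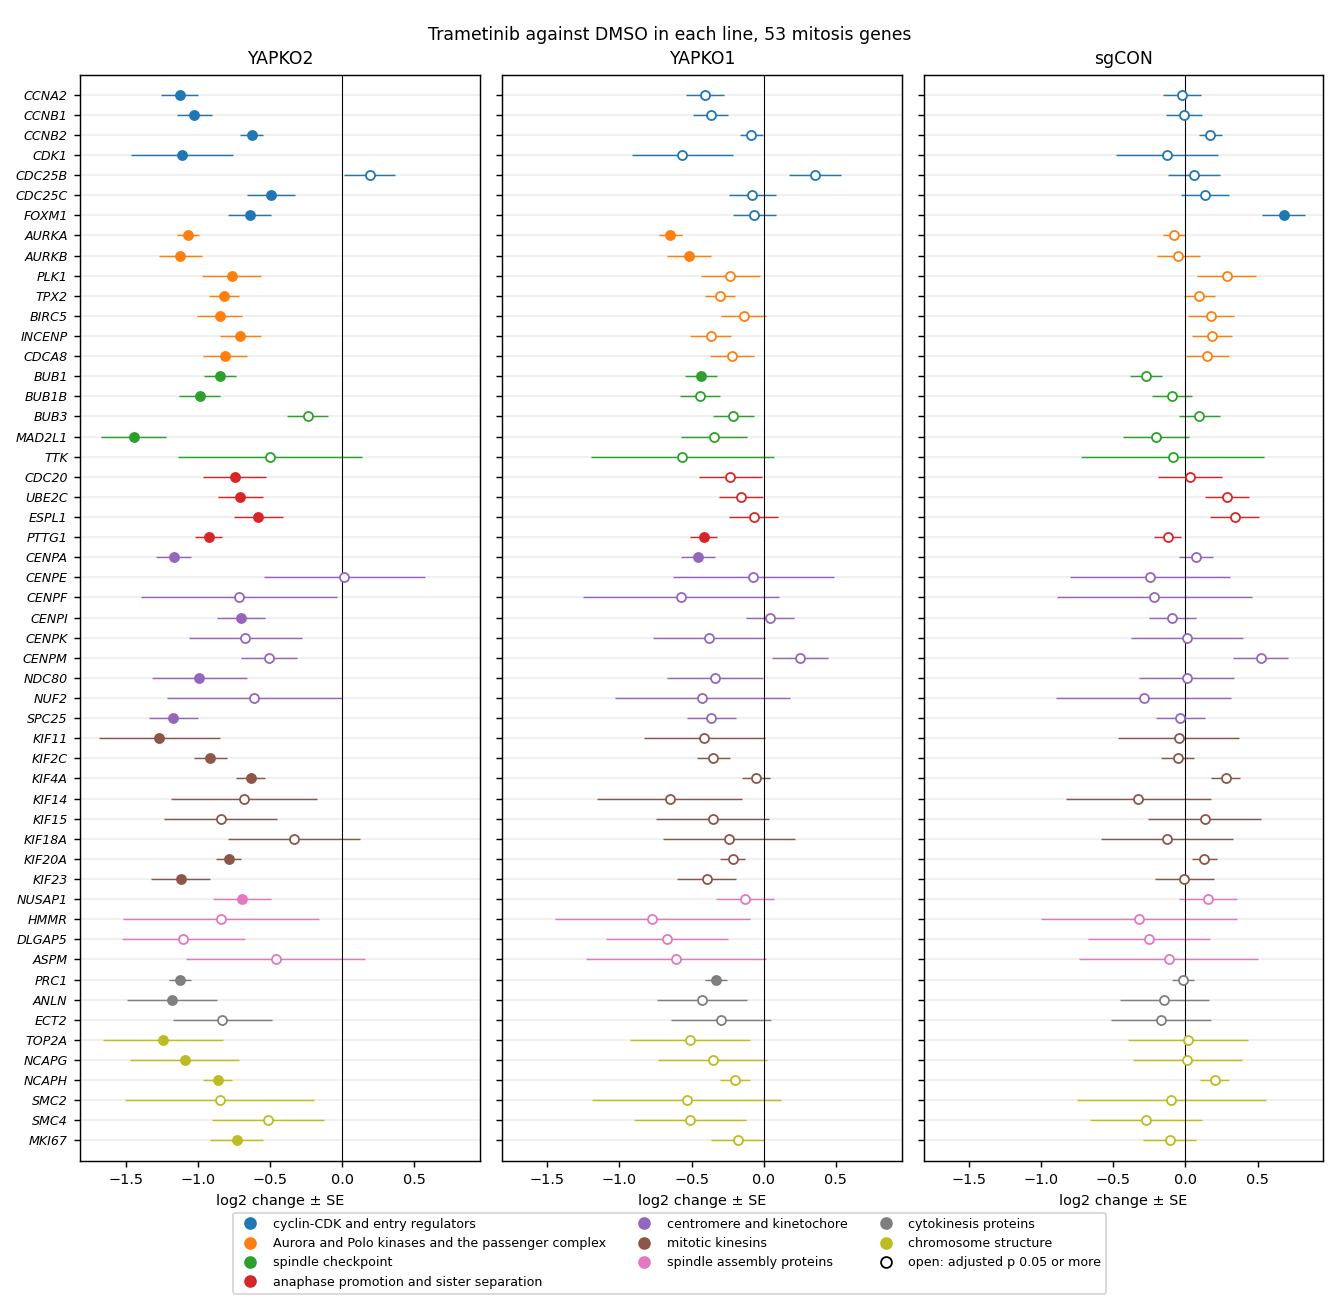
Log2 change ± SE (horizontal axes) of the 53 members with trametinib against DMSO in YAPKO2, YAPKO1 and sgCON, coloured by role; filled points have an adjusted p under 0.05. In YAPKO2 36 points are filled, all left of 0, in YAPKO1 6, and in sgCON 1, FOXM1, right of 0.

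**Figure D3:**
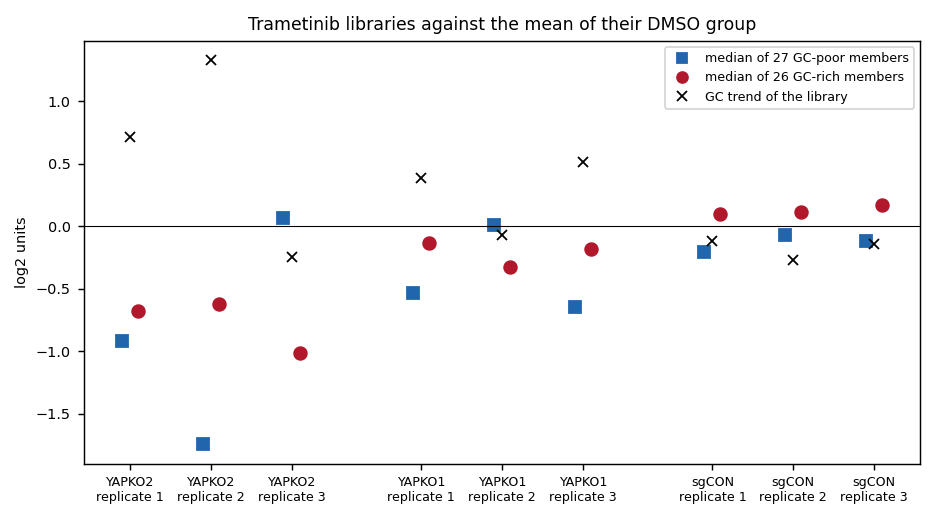
Median log2 change of the 27 GC-poor (squares) and 26 GC-rich (circles) members in each trametinib library against the mean of its DMSO group, with the GC trend of the library (crosses), all in log2 units. The members are split at their own median GC content. The GC-rich members are below 0 in the 3 YAPKO2 and the 3 YAPKO1 libraries and above 0 in the 3 sgCON libraries.

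In YAPKO1 the response had the same direction in most members, but 6 fell and none rose (7.85% of all genes tested were called, 3.97% as higher and 3.88% as lower). The median log2 change was -0.35, and 50 of the 53 members were below 0. The 6 were AURKA, AURKB, CENPA, BUB1, PTTG1 and PRC1, and all 6 also fell in YAPKO2. AURKA had 33.9, 29.5 and 31.9 FPKM in YAPKO1 trametinib, against 50.2, 48.4 and 51.2 FPKM in YAPKO1 DMSO, with no overlap (log2 change -0.65 ± 0.08, adjusted p = 3.39e-05, limma). For AURKB the values were 81.7, 66.8 and 79.8 FPKM in trametinib and 95.1, 101 and 135 FPKM in DMSO (-0.52 ± 0.15), and for CENPA 22.0, 24.9 and 23.9 FPKM in trametinib and 30.6, 34.4 and 32.6 FPKM in DMSO (-0.45 ± 0.12). BUB1 changed by -0.43, PTTG1 by -0.42 and PRC1 by -0.33 on the log2 scale, each without overlap between the groups.

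CCNB1 was not called in YAPKO1, though its 182, 173 and 183 FPKM in trametinib lay under all 3 DMSO values of 203, 216 and 281 FPKM (log2 change -0.37, 95% interval -0.62 to -0.11, adjusted p = 0.0753, limma). YAPKO1 DMSO replicate 3, with a GC trend of 0.67, had low values of GC-poor members such as CENPF (14.7 FPKM, against 76.6 and 52.2 FPKM in the other replicates) and SMC2 (8.38 FPKM, against 35.5 and 28.6 FPKM). The count of called members was 3 without YAPKO1 DMSO replicate 2 and 2 without YAPKO1 trametinib replicate 3, but 20 without the 2 high-trend libraries and 10 with the GC correction, while with only the YAPKO1 libraries in the fit it was 1. The GC correction called 13.5% of all genes tested. The fibroblast marker sum was 81.1 to 167 FPKM in YAPKO1 trametinib and 118 to 398 FPKM in YAPKO1 DMSO. Of the 6 markers 1 was called as lower and none as higher, and their part was not tested.

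In sgCON, FOXM1, the transcription factor of many G2 and M phase genes, rose and no other member was called (5.22% of all genes tested were called, 2.28% as higher and 2.94% as lower). FOXM1 had 37.1, 35.5 and 37.5 FPKM in sgCON trametinib, against 23.6, 22.2 and 22.3 FPKM in sgCON DMSO, a log2 change of 0.68 ± 0.15 (adjusted p = 0.0104, limma). Parental cells had 34.4, 36.7 and 38.6 FPKM, above all sgCON DMSO libraries, so that FOXM1 was also lower in sgCON DMSO than in parental cells (-0.68 ± 0.15, adjusted p = 0.00454, limma). Every comparison of FOXM1 with sgCON in DMSO rests on the same 3 libraries. The median of the 53 members was -0.02. CCNB1 had 207, 216 and 235 FPKM in trametinib and 216, 229.5 and 217 FPKM in DMSO (95% interval of the log2 change -0.27 to 0.25). PRC1 had 116, 124 and 117 FPKM in trametinib and 127, 117 and 117 FPKM in DMSO (95% interval -0.17 to 0.14). For CDK1 the interval was wide, -0.87 to 0.62. Its width uses a spread shared by the 7 groups and not that of sgCON alone. The SD of CDK1 was 15.2 and 12.3 FPKM in sgCON DMSO and trametinib. It was 32.7 and 20.0 FPKM in YAPKO1 DMSO and trametinib, and 15.7 and 20.5 FPKM in YAPKO2 DMSO and trametinib. Among the members the change went with GC content, with medians of -0.12 for the GC-poor and 0.13 for the GC-rich members. With the GC correction FOXM1, CENPM and KIF4A rose, and with only the sgCON libraries in the fit 8 were called. The correction called 9.45% of all genes tested.

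The response of YAPKO2 was set against that of sgCON as a difference of 2 log2 changes. It was more negative in YAPKO2 for 26 of the 53 members and more positive for none, and 25 of the 26 also fell in YAPKO2 itself. Over all genes tested 4.83% were called, 1.8% as higher and 3.03% as lower, and the members' median difference was -0.91 against -0.01. The 6 fibroblast markers had a median of -0.92 in the same difference, with 2 called as lower and 1 as higher, and their part was not tested. The largest difference was that of FOXM1, -1.32 ± 0.21 (adjusted p = 0.00107, limma). Both responses contribute to it, as FOXM1 had 26.3, 29.04 and 19.1 FPKM in YAPKO2 trametinib and 36.6, 43.9 and 35.3 FPKM in YAPKO2 DMSO, besides its rise in sgCON. CENPA followed with -1.24 ± 0.17, MAD2L1 with -1.24 ± 0.32 and SPC25 with -1.14 ± 0.24, and the spread of MAD2L1 between replicates is reflected in its adjusted p of 0.0333 (limma).

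Among the differences with small errors were those of PRC1 (-1.11 ± 0.11, adjusted p = 2.42e-05, limma), AURKA (-0.99 ± 0.11), NCAPH (-1.06 ± 0.14) and KIF20A (-0.92 ± 0.12). KIF23, CCNA2, AURKB, PLK1 and CCNB1 lay between -1.11 and -1.02. By role, all 7 members of the Aurora, Polo and passenger group, 4 of 7 entry regulators, 3 of 5 checkpoint genes, 3 of 4 anaphase genes and 4 of 8 kinesins were called, but none of the 4 spindle assembly proteins. Of the GC-rich members 20 of 26 were called and of the GC-poor members 6 of 27, whose medians were -0.92 and -0.75. With the GC correction 35 members were called, all 26 among them, and with single libraries left out 20 to 30. The correction called 10.1% of all genes tested.

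**Figure D4:**
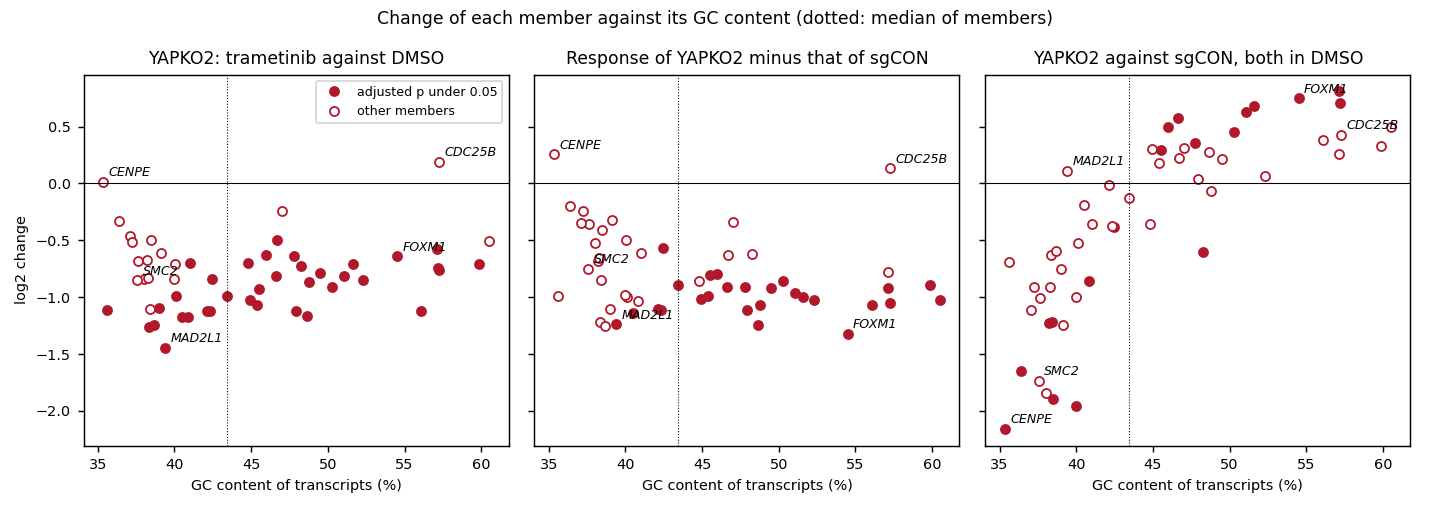
Log2 change of each member (vertical axis) against the GC content of its transcripts in percent (horizontal axis) for trametinib against DMSO in YAPKO2, for the response of YAPKO2 minus that of sgCON, and for YAPKO2 against sgCON in DMSO; filled points have an adjusted p under 0.05. Nearly all members lie below 0 at any GC content in the first 2 panels, while in DMSO the members climb with GC content.

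The response of YAPKO1 differed from that of sgCON in 1 member, AURKA (-0.57 ± 0.11, adjusted p = 0.0375, limma), where 0.249% of all genes were called, 0.199% as higher and 0.0497% as lower. That call was lost when any 1 of the 12 libraries of this comparison was left out, and the median difference was -0.35. Between the knockout lines, the response of YAPKO2 was more negative than that of YAPKO1 for PRC1 (-0.79 ± 0.11), NCAPH (-0.66 ± 0.14), KIF20A (-0.57 ± 0.12) and CCNB2 (-0.54 ± 0.11), and for no other member. Here 0.808% of all genes were called, 0.217% as higher and 0.59% as lower, and the members' median was -0.55. With the GC correction the share of all genes called was 2.12%. Each of the 2 knockout differences from sgCON uses the same 6 sgCON libraries. The count of 4 was 7 without YAPKO2 trametinib replicate 2 or 3, 5 without YAPKO1 DMSO replicate 3, 1 or 2 without any other of the 12 libraries, 13 without the 2 high-trend libraries, 1 without YAPKO2 trametinib replicates 2 and 3 together, and 15 with the GC correction.

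Within trametinib, YAPKO2 had less RNA of most mitosis genes than sgCON. Of the 53 members 43 were lower and 1, CDC25B, was higher, where 36.3% of all genes tested were called, 17.7% as higher and 18.6% as lower. The median log2 difference of the members was -1.12. All 8 kinesins, all 6 genes of chromosome structure, all 3 cytokinesis genes and 8 of 9 centromere and kinetochore genes were lower, with role medians between -1.57 and -1.42. Among the 4 anaphase genes 1 was called, PTTG1 (-0.50).

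The largest differences belonged to SMC2, CENPF and HMMR, a spindle protein that binds microtubules. SMC2 had 7.70, 1.35 and 22.6 FPKM in YAPKO2 trametinib, against 38.2, 38.8 and 39.8 FPKM in sgCON trametinib (log2 difference -2.48 ± 0.65). CENPF had 14.2, 4.32 and 51.6 FPKM in YAPKO2 trametinib and 79.4, 91.7 and 82.8 FPKM in sgCON trametinib (-2.46 ± 0.68). HMMR had 11.9, 2.24 and 32.8 FPKM in YAPKO2 trametinib and 46.8, 53.7 and 60.4 FPKM in sgCON trametinib (-2.37 ± 0.68). These 3 are GC-poor, were lowest in YAPKO2 trametinib replicate 2, and did not overlap with sgCON in any replicate. ECT2 had 17.6, 9.12 and 34.5 FPKM in YAPKO2 trametinib and 51.9, 56.3 and 52.5 FPKM in sgCON trametinib (-1.57 ± 0.35).

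Members with less spread between replicates had smaller differences. PRC1 differed by -1.07 ± 0.08 (adjusted p = 1.01e-08, limma), NCAPH by -1.13 ± 0.10, CCNA2 by -1.12 ± 0.13, AURKA by -0.81 ± 0.08 and BUB1 by -0.96 ± 0.11. CDC25B was higher by 0.56 ± 0.18 (adjusted p = 0.022, limma), with 33.9, 42.9 and 23.9 FPKM in YAPKO2 trametinib and 23.5, 19.7 and 22.9 FPKM in sgCON trametinib. Across the 53 members the difference went with GC content (Spearman rho 0.81, over members that share the same libraries). The medians were -1.68 for the GC-poor and -0.54 for the GC-rich members, and the part of GC content was not tested further than by the correction, which left 45 lower members and a median of -0.86. The correction called 38.9% of all genes tested. Leaving out single libraries gave 39 to 44 called members, and only the 2 groups compared gave 23. Of the 6 fibroblast markers 3 were called as higher and 3 as lower here, with a median of -0.04, and their part was not tested.

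YAPKO1 in trametinib had 8 lower members than sgCON and none higher (15% of all genes tested were called, 7.81% as higher and 7.18% as lower). These are 15.1% of the members, near the share of all genes called in either direction. The 8 were MKI67, KIF23, CENPI, BUB1B, PRC1, AURKA, NCAPH and KIF20A, and all 8 were also lower in YAPKO2, in a comparison with the same sgCON libraries. MKI67 had 5.35, 5.72 and 3.24 FPKM in YAPKO1 trametinib, against 8.50, 8.75 and 8.87 FPKM in sgCON trametinib (log2 difference -0.84 ± 0.18, adjusted p = 0.00507, limma). For KIF23 the values were 24.5, 29.7 and 26.9 FPKM in YAPKO1 and 44.6, 49.3 and 41.8 FPKM in sgCON (-0.73 ± 0.21), and for CENPI, of the inner kinetochore, 6.38, 7.73 and 5.11 FPKM in YAPKO1 and 9.95, 10.3 and 9.33 FPKM in sgCON (-0.60 ± 0.17). The count was 4 without sgCON trametinib replicate 1 or 2 and 3 without YAPKO1 trametinib replicate 3. With the GC correction it was 28, of which 27 were lower, and without the 2 high-trend libraries it was 34. That correction called 21.5% of all genes tested. Of the 6 fibroblast markers 4 were lower too and 1 was higher. Their sum was 81.1 to 167 FPKM in YAPKO1 trametinib and 346 to 468 FPKM in sgCON trametinib, and their part was not tested.

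In DMSO the members did not move together between the lines. In YAPKO2 against sgCON 10 were higher and 9 were lower, where 27.1% of all genes tested were called, 14.1% as higher and 13.1% as lower, and the median was -0.12. The higher ones were ESPL1, FOXM1, PLK1, UBE2C, CDCA8, TPX2, CCNB2, KIF2C (a kinesin that depolymerises microtubules), KIF4A (a chromosome-bound kinesin) and PTTG1, with log2 differences of 0.30 to 0.81. The lower ones were CENPE, CENPF, TTK, KIF18A, CENPK, DLGAP5 (a spindle assembly protein), ANLN, MKI67 and BUB1, with -2.16 to -0.39.

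CENPE had 2.67, 1.16 and 2.03 FPKM in YAPKO2 DMSO, against 11.2, 11.2 and 8.18 FPKM in sgCON DMSO (log2 difference -2.16 ± 0.56, adjusted p = 0.00893, limma). CENPF had 46.8, 12.9 and 25.1 FPKM in YAPKO2 DMSO and 100.5, 103 and 91.4 FPKM in sgCON DMSO (-1.96 ± 0.68). TTK had 13.5, 4.12 and 6.17 FPKM in YAPKO2 DMSO and 29.01, 28.6 and 25.2 FPKM in sgCON DMSO (-1.89 ± 0.64). All 3 genes were lowest in YAPKO2 DMSO replicate 2, the library of that group with the highest GC trend. FOXM1 had 36.6, 43.9 and 35.3 FPKM in YAPKO2 DMSO and 23.6, 22.2 and 22.3 FPKM in sgCON DMSO (0.75 ± 0.15), and ESPL1 had 12.5, 10.6 and 10.3 FPKM in YAPKO2 DMSO and 5.97, 6.31 and 6.05 FPKM in sgCON DMSO (0.81 ± 0.17). PLK1 had 45.6, 63.5 and 49.4 FPKM in YAPKO2 DMSO and 31.3, 33.2 and 31.2 FPKM in sgCON DMSO (0.70 ± 0.20).

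The split followed GC content closely. All 10 higher members were among the 26 GC-rich ones and 8 of the 9 lower among the 27 GC-poor ones, and the Spearman rho between the difference and GC content was 0.87 over the 53 members, against 0.43 over all genes with a GC value. The points share the same 6 libraries, and the part of GC content was not tested beyond the correction. With the correction 14 members were higher and 10 lower, 18 of them among the 19, and the medians of the GC-poor and GC-rich members were -0.40 and 0.30. The correction called 31.7% of all genes tested. The count of 19 was 11 without sgCON DMSO replicate 1, and 8 and 12 without YAPKO2 DMSO replicates 2 and 3. It was 39 without the 2 high-trend libraries and 39 with only the 2 groups compared in the fit. The share of all genes called in these fits is not given, so the rise cannot be read as particular to the members. Of the 36 members that fell with trametinib in YAPKO2, 23 had no called difference between YAPKO2 and sgCON in DMSO. That number was 13 without the 2 high-trend libraries and 12 with only the 2 groups compared. It was 26 with no filter, and 24 to 29 when any 1 of the sgCON DMSO or YAPKO2 DMSO libraries was left out.

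YAPKO1 in DMSO differed from sgCON in 6 members (12% of all genes tested were called, 6.18% as higher and 5.81% as lower). The 6 are 11.3% of the members, near the share of all genes. CENPE, MKI67, CENPI and CDC25B were lower, and ESPL1 and FOXM1 higher. CENPE had 6.91, 2.46 and 0.760 FPKM in YAPKO1 DMSO and 11.2, 11.2 and 8.18 FPKM in sgCON DMSO (log2 difference -1.81 ± 0.56), with its lowest value in replicate 3, which has the high GC trend. MKI67 was more even, at 5.88, 5.30 and 4.84 FPKM in YAPKO1 DMSO and 9.92, 8.51 and 9.92 FPKM in sgCON DMSO (-0.77 ± 0.18). CENPI had 7.36, 6.48 and 4.82 FPKM in YAPKO1 DMSO and 10.0, 11.03 and 10.5 FPKM in sgCON DMSO (-0.73 ± 0.17). CENPE and MKI67 were lower and ESPL1 and FOXM1 higher in both knockout lines, set against the same 3 sgCON libraries. Only 2 or 3 members were called without any 1 of the sgCON DMSO libraries or without YAPKO1 DMSO replicate 3, and 13 with the GC correction. That correction called 19.1% of all genes tested.

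**Figure D5:**
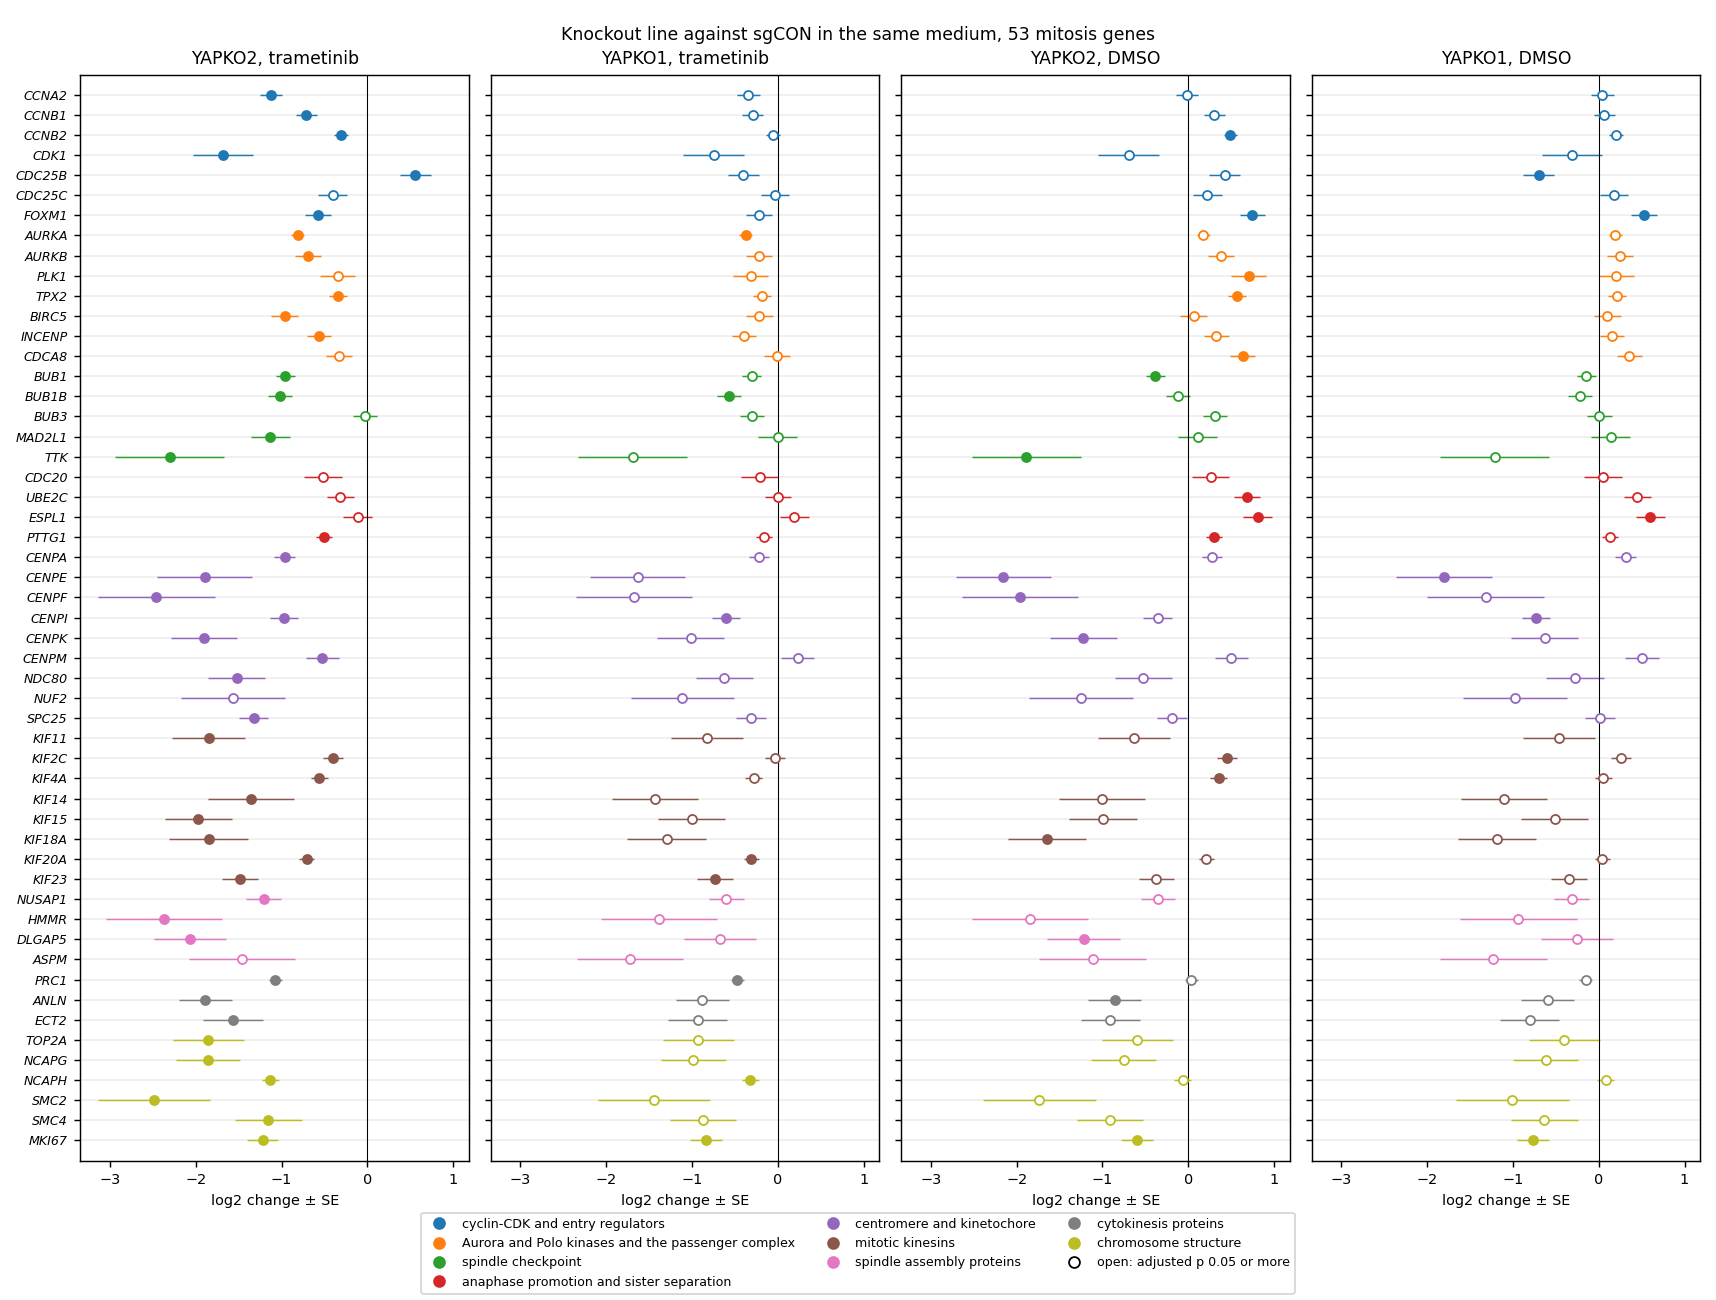
Log2 difference ± SE (horizontal axes) of the 53 members between each knockout line and sgCON in the same medium, coloured by role; filled points have an adjusted p under 0.05. In trametinib 43 members are lower in YAPKO2 and 8 in YAPKO1, and in DMSO 10 are higher and 9 lower in YAPKO2.

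CDC25B separated the knockout lines in DMSO, with 25.6, 33.4 and 27.2 FPKM in YAPKO2 and 10.9, 12.4 and 15.4 FPKM in YAPKO1. It was higher in YAPKO2 by 1.13 ± 0.18 on the log2 scale (adjusted p = 0.000549, limma), while sgCON DMSO, at 20.1, 22.1 and 21.2 FPKM, lay between them. TPX2 had 75.5, 92.3 and 81.6 FPKM in YAPKO2 and 61.3, 65.3 and 67.0 FPKM in YAPKO1 (0.36 ± 0.10), and CCNB2 had 108, 105 and 108 FPKM in YAPKO2 and 86.0, 90.0 and 85.4 FPKM in YAPKO1 (0.29 ± 0.08). These 3 were the members called, where 6.97% of all genes were, 3.73% as higher and 3.23% as lower. The 3 are 5.66% of the members, under the share of all genes called in either direction. One member was called without YAPKO1 DMSO replicate 1 or 2 or without YAPKO2 DMSO replicate 2 or 3, and 14 without the 2 high-trend libraries.

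Against parental cells, sgCON in DMSO had 6 lower members and none higher (15.9% of all genes tested were called, 7.99% as higher and 7.87% as lower). The 6 are 11.3% of the members, under the share of all genes called in either direction. ESPL1 had 5.97, 6.31 and 6.05 FPKM in sgCON DMSO and 9.38, 12.2 and 10.5 FPKM in parental cells (log2 difference -0.75 ± 0.17). FOXM1 followed with -0.68 ± 0.15. CENPM, of the inner kinetochore, had 16.7, 12.1 and 14.5 FPKM in sgCON DMSO and 23.1, 21.1 and 23.5 FPKM in parental cells (-0.64 ± 0.19). KIF4A, CCNB2 and NCAPH were lower by 0.45, 0.33 and 0.32 on the log2 scale, and all 6 are among the GC-rich members. Of the 6 fibroblast markers 4 were lower as well, with a sum of 345 to 436 FPKM in sgCON DMSO and 713 to 774 FPKM in parental cells, and their part was not tested.

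YAPKO2 in DMSO had 18 lower and 6 higher members than parental cells (37.8% of all genes tested were called, 20% as higher and 17.8% as lower), and YAPKO1 in DMSO had 11 lower and 2 higher (27.3%, with 14.8% as higher and 12.4% as lower). The members called were 45.3% in YAPKO2 and 24.5% in YAPKO1, the latter under the share of all genes. CENPE had the largest difference in both, with -2.18 ± 0.56 in YAPKO2 and -1.83 ± 0.56 in YAPKO1, against parental values of 8.19, 10.0 and 13.1 FPKM. In YAPKO2, SMC2 differed by -2.02 ± 0.65 and TTK by -1.92 ± 0.64, and UBE2C, AURKB, CDCA8, TPX2, PTTG1 and KIF20A were higher by 0.33 to 0.69. In YAPKO1, KIF18A had 10.1, 6.32 and 2.35 FPKM, against 14.2, 17.0 and 16.1 FPKM in parental cells (-1.46 ± 0.46), and ECT2 had 46.9, 42.2 and 20.2 FPKM, against 94.2, 94.2 and 90.4 FPKM (-1.43 ± 0.35). Of the 18 lower members in YAPKO2 16 were GC-poor, as were 7 of the 11 in YAPKO1. The YAPKO1 count of 13 was 7 without parental replicate 2, 6 without parental replicate 3 and 7 without YAPKO1 DMSO replicate 3. The YAPKO2 count of 24 was 39 without the 2 high-trend libraries. Both comparisons use the same 3 parental libraries. The fibroblast marker sum was 349 to 577 FPKM in YAPKO2 DMSO and 118 to 398 FPKM in YAPKO1 DMSO, against 713 to 774 FPKM in parental cells. Of the 6 markers, 3 were called as lower and 2 as higher in YAPKO2, and 2 as lower and 1 as higher in YAPKO1. Their part was not tested.

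Other genes of mitosis, listed by function and not among the 53, were read in the same fit. In the trametinib response of YAPKO2, 16 of 29 other kinetochore and centromere genes fell and none rose. Of all genes tested 11.5% fell and 8.59% rose in this response. The largest falls were those of SKA1 (-1.07 ± 0.11), HJURP, the chaperone of CENPA (-1.07 ± 0.09), CENPW (-1.07 ± 0.10) and ZWINT (-0.996 ± 0.094). Of 27 other spindle and cytokinesis genes 21 fell, with ARHGAP11A (-1.27 ± 0.41) and CEP55, of the final cut between daughter cells (-1.23 ± 0.36), first, while NUMA1, a protein of the spindle poles, rose. Of 15 cohesin and other condensin genes 6 fell, among them ESCO2 (-1.45 ± 0.45), which acetylates cohesin, and NCAPG2 (-1.01 ± 0.17).

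Of 17 genes of the anaphase-promoting complex and its regulators 8 fell, with a list median of -0.29. The inhibitor FBXO5 (EMI1) changed most (-1.19 ± 0.22), followed by the enzyme UBE2S (-0.77 ± 0.20). Among 18 mitotic entry and DREAM-MuvB regulators 11 fell, including GMNN, geminin (-1.16 ± 0.21), CDC25A (-1.06 ± 0.13), TFDP1 (-1.03 ± 0.08) and MYBL2, B-MYB (-0.99 ± 0.22), and LIN37, of the MuvB core, rose. In the difference of the YAPKO2 response from that of sgCON, 11, 12, 4, 2 and 5 genes of these lists, in the order given, were lower and none were higher. There 3.03% of all genes tested were lower and 1.8% higher. In sgCON itself PMF1 of the kinetochore rose (0.53 ± 0.15), and no other gene of the 5 lists was called, where 5.22% of all genes tested were. In YAPKO1, 3 kinetochore genes (CENPH, CENPW and HJURP), RACGAP1 and 2 entry regulators (PKMYT1 and TFDP1) fell and NUMA1 rose. Of all genes tested 3.88% fell and 3.97% rose in YAPKO1.

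The promoter letters were set beside the YAPKO2 response. Of the 32 members whose window holds TTTGAA 21 fell, with a median log2 change of -0.84, and of the 13 without it 10 fell, with a median of -0.84. Among all genes tested 11.5% fell. CCNB1, with CCAAT alone in the sequence above, fell, and so did PLK1 and PRC1 with both motifs. The members whose windows hold neither motif were CDC25B, CENPE, CDC25C, CENPI and KIF2C. Of these, CDC25C, CENPI and KIF2C fell, and CDC25B and CENPE were not called. Only exact letters in the window around the listed start were searched, so the split need not separate members by the elements that act on them. CDC25B and CENPE were chosen for display after their values were known.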

How the data were processed

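The 21 NLF libraries were made from total RNA depleted of ribosomal RNA, with a kit that keeps strand, per the labels' protocols. Treatment began 24 h after plating. The DMSO concentration reads 0.01% on the samples, whereas the text of the series says 0.1%. Samples were grouped by line and treatment from their labels, and the columns headed with DMSO and a replicate number alone were taken as parental. No label states whether replicates were cultured separately. The p-values thus rest on a spread between samples that may be only technical.

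Expression was deposited by the authors as FPKM, in 2 tables with 57820 genes each. Per the submitters' processing notes, STAR 2.4.2, RSEM 1.3.0 and hg19 were used. Whether strand was used in quantification is not given in the sources used here, so a gene with an antisense partner is uncertain. The calibrated table equals the other times 1 factor per library (0.927 to 1.07, largest relative deviation 9.10e-15). Without counts, counting error cannot be given.

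Calibrated values were divided by the median ratio of each library (0.930 to 1.11). Genes with an FPKM of 1 or more in 3 or more libraries were kept. With limma 3.58.1 (R 4.3.3), log2(FPKM + 0.5) was modelled as 7 group means over all libraries, with eBayes and a trend, in 14 comparisons. The spread of a gene is shared by the 7 groups, so an SE or interval is not that of the compared groups alone. Tests were two-sided and p-values were Benjamini-Hochberg adjusted over all genes tested, with a threshold of 0.05. Fold changes are on the log2(FPKM + 0.5) scale, which understates the change of low genes. The code was tested on simulated data. GC content came from GENCODE 29 transcripts (GRCh38), found for 96.5% of tested genes and all 53 members, and the correction was a spline with 5 degrees of freedom per library. No hg19 coordinate is used. Promoter sequences are from RefSeq.

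The members, their roles, the other lists and the genes named were chosen with earlier results of these data known. Values per library are printed for 19 preset members where they are called and for the 3 largest called changes of a comparison. Values of members not called, such as CDC25B and SMC2 in the YAPKO2 response, were picked for print after they were seen. Alternative fits used a pseudocount of 0.1 or 1, no filter, both tables as deposited, quantile normalization, only the groups compared, a replicate block, the GC correction with and without the block, leaving out YAPKO2 trametinib replicate 2 and YAPKO1 DMSO replicate 3 together for their high GC trend, and leaving out each library. Leaving out the 2 libraries farthest from their group mean in GC trend, YAPKO2 trametinib replicates 2 and 3, was added after seeing the data.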

Additional observations from a re-analysis of the deposited data

Results flagged for a closer look

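These results differed between lines under the same contrast, tested as a difference of 2 trametinib responses in limma over all genes. Between YAPKO2 and sgCON 26 members were called, all more negative in YAPKO2, where 4.83% of all genes tested were called. The differences (log2) were -1.32 for FOXM1, -1.24 for MAD2L1, -1.24 for CENPA, -1.14 for SPC25, -1.11 for KIF23, -1.11 for PRC1 and -1.10 for CCNA2. They were -1.07 for AURKB, -1.06 for NCAPH, -1.05 for PLK1, -1.02 for CCNB1 and -0.99 for AURKA.

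Between YAPKO1 and sgCON 1 member was called, AURKA (-0.57), where 0.249% of all genes tested were called. Between YAPKO2 and YAPKO1 4 members were called, with -0.79 for PRC1, -0.66 for NCAPH, -0.57 for KIF20A and -0.54 for CCNB2. The share over all genes was 0.808% there. No group was larger than 3 libraries, so single libraries far from their group were not looked for by a formal rule.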

How the results depend on the processing

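Of 2448 recomputed values of named members, 1982 kept their direction and side of the threshold, 434 lost the call, 4 gained it and 28 changed sign, the last all for changes not called in the main analysis. The counts of called members changed by over 1.5 times as follows, against 1, 6 and 36 in the trametinib response of sgCON, the trametinib response of YAPKO1 and the trametinib response of YAPKO2, 6, 19, 8 and 44 in YAPKO1 against sgCON in DMSO, YAPKO2 against sgCON in DMSO, YAPKO1 against sgCON in trametinib and YAPKO2 against sgCON in trametinib, 1 and 4 in the response difference YAPKO1 minus sgCON and the response difference YAPKO2 minus YAPKO1, and 6, 13, 24 and 3 in sgCON in DMSO against parental, YAPKO1 in DMSO against parental, YAPKO2 in DMSO against parental and YAPKO2 against YAPKO1 in DMSO.

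The GC correction gave 3 in the sgCON response, 10 in the YAPKO1 response, 13 for YAPKO1 against sgCON in DMSO and 28 in trametinib, 22 against parental cells, 6 for YAPKO2 against YAPKO1, 2 in the response difference of YAPKO1 from sgCON and 15 in that of YAPKO2 from YAPKO1. Together with the replicate block it gave 2, 10, 10, 23 and 21 in the first 5 of these and 11 in the last. Of all genes tested, the GC correction alone called 9.45%, 13.5%, 19.1%, 21.5%, 33.8%, 11.4%, 0.795% and 2.12%, in the order listed for it. The main analysis called 5.22%, 7.85%, 12%, 15%, 27.3%, 6.97%, 0.249% and 0.808%. For the other alternative fits the share of all genes called is not given here. Without the 2 high-trend libraries there were 20 in the YAPKO1 response, 39 for YAPKO2 and 34 for YAPKO1 against sgCON in DMSO and in trametinib, 39 for YAPKO2 against parental cells, 14 for YAPKO2 against YAPKO1 and 13 in their response difference. Without the 2 libraries farthest from their group mean in GC trend, chosen after seeing the data, YAPKO2 trametinib is left with 1 library, assumed to vary like the other groups. There were then 12 in the YAPKO1 response, 31 for YAPKO2 against sgCON in DMSO, 29 for YAPKO1 against sgCON in trametinib, 23 for YAPKO1 against parental cells and 1 in the response difference of the knockout lines. With only the groups compared, the spread is taken from fewer libraries and from those groups alone. Groups could differ in spread: CENPF had an SD of 6.05 and 6.32 FPKM in sgCON DMSO and trametinib and of 15.9 to 31.2 FPKM in the knockout groups. The part of unequal spread in the counts, which rose in some comparisons and fell in others, was not tested. The responses of sgCON, YAPKO1 and YAPKO2 then had 8, 1 and 16. YAPKO1 and YAPKO2 against sgCON had 1 and 39 in DMSO and 25 and 23 in trametinib. Against parental cells, sgCON, YAPKO1 and YAPKO2 had 20, 7 and 40, and YAPKO2 against YAPKO1 had 1. The response differences of YAPKO1 from sgCON and of YAPKO2 from YAPKO1 had 0 and 0. In these 2 fits with limma, 14 and 19 members had an unadjusted p under 0.05.

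Without a filter there were 2 and 11 for YAPKO1 and YAPKO2 against sgCON in DMSO, 5 for YAPKO1 in trametinib and 6 for YAPKO1 against parental cells. The calibrated table as deposited gave 1 for YAPKO2 against YAPKO1, 1 in their response difference and 0 in that of YAPKO1 from sgCON, for which the other table also gave 0 (limma, with 14 members at an unadjusted p under 0.05 in each). Quantile normalization gave 8 in the response difference of the knockout lines. The replicate block gave 0 in the response difference YAPKO1 minus sgCON (10 at an unadjusted p under 0.05), 2 in that of the knockout lines, and 31 and 20 in the YAPKO2 response and its difference from sgCON. Of 63 correlations between same-numbered libraries 4 were over 0.1, with a range of -0.551 to 0.361, and 16 were the highest of their library. Between DMSO and trametinib of 1 line, replicates 1, 2 and 3 had -0.125, 0.168 and 0.228 in YAPKO1. They had -0.053, 0.361 and 0.078 in YAPKO2, and -0.006, 0.013 and 0.021 in sgCON. Libraries of a group also differ in GC trend, so these values cannot show whether samples were paired. The cause of each of these changes was not tested.

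Leaving out 1 library at a time gave 1 in the sgCON response, 2 to 7 in the YAPKO1 response, 28 to 41 in the YAPKO2 response, 2 to 7 and 8 to 19 for YAPKO1 and YAPKO2 against sgCON in DMSO, 3 to 11 and 39 to 44 in trametinib, 0 for the response difference YAPKO1 minus sgCON (9 to 18 members at an unadjusted p under 0.05), 20 to 30 for that of YAPKO2, 1 to 7 between the knockout lines, 4 to 6, 6 to 18 and 16 to 27 for sgCON, YAPKO1 and YAPKO2 against parental cells, and 1 to 3 for YAPKO2 against YAPKO1.

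The log2 changes that turned sign were those of CCNB1, trametinib response of sgCON, at 0.037 with the calibrated and 0.037 with the other table as deposited, 0.085 with quantile normalization, 0.052 with the GC correction, with and without the block, and above 0 in 3 of the fits that left out 1 library, over all of which it ran between -0.059 and 0.030. CDK1, trametinib response of sgCON, was at 0.056 with the GC correction, with and without the block. FOXM1, trametinib response of YAPKO1, was at 0.087 without the 2 high-trend libraries and ran between -0.16 and 0.087 with single libraries left out. CENPE, trametinib response of YAPKO2, was at -0.057 with a pseudocount of 0.1, -0.052 with quantile normalization, -0.38 without the 2 libraries farthest from their group mean, and between -0.70 and 0.53 with single libraries left out. Without YAPKO2 trametinib replicate 2, and so also without the 2 high-trend libraries, the trametinib response of YAPKO2 was at 0.13 for CENPF, -0.0042 for CDC25B, 0.12 for SMC2, 0.12 for HMMR and 0.12 for TTK. With single libraries left out, the other end of the range was -1.59 for CENPF, trametinib response of YAPKO2, and in the same comparison 0.41 for CDC25B, -1.70 for SMC2, -1.68 for HMMR and -1.24 for TTK.

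The share of all called genes that were higher moved by over 10 percentage points with the scaling in the trametinib response of sgCON (43.7%, and 54.8% with the calibrated table as deposited), the trametinib response of YAPKO1 (50.6%, and 62.3% with the other table as deposited) and the trametinib response of YAPKO2 (42.8% and 56.4%). With 3 libraries in a group and an unknown number of reads, changes within the wide intervals of members such as TTK and NUF2 were not detectable.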
